A study of Mus musculus with 18 samples.

Results

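The Ms4a genes encode small membrane proteins that cross the membrane with a tetraspan fold, and 7 of the 22049 genes in the deposited tables form the set described here: Ms4a1, Ms4a4b, Ms4a4c, Ms4a6b, Ms4a6c, Ms4a6d and Ms4a7. They were taken by name, and their rows were read in the count tables of all 18 libraries. The libraries are Drop-seq libraries, in which the RNA of single cells is captured on barcoded beads in droplets and each captured molecule carries a unique molecular identifier (UMI). They came from female BALB/cJ mice. The tumour-bearing mice received 2000000 4T1-tdTomato-luc2 cells, a mouse mammary carcinoma line that carries a fluorescent and a luciferase reporter, into a mammary fat pad at 7 to 8 weeks of age. The healthy mice received no tumour cells. Lung, spleen and an implanted biomaterial scaffold were taken on days 7, 14 and 21, at 9, 10 and 11 weeks of age, from mice of both kinds, which gave 1 library for each tissue, status and day and therefore 3 libraries in each of 6 groups: tumour-bearing and healthy lung, tumour-bearing and healthy scaffold, and tumour-bearing and healthy spleen. The labels say neither how many mice went into a library nor whether mice gave more than 1 tissue, so p-values measure the spread between these libraries.

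Members of this family are best known from leukocytes. Ms4a1 encodes CD20, the B cell surface protein that takes part in B cell receptor and calcium signalling and is the target of rituximab in patients. Ms4a4b encodes a mouse T cell surface protein described as a modulator of T cell activation. The Ms4a6 genes and Ms4a4c are mouse genes for which myeloid expression is known and whose function is less defined, and Ms4a7 is used as a marker of tissue macrophages. The relatives outside the 7 include Ms4a2, the beta chain of the high-affinity IgE receptor of mast cells, Ms4a3, a marker of granulocyte and monocyte progenitors in the mouse, and Tmem176a and Tmem176b, which lie elsewhere in the genome.

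All 7 genes lie on chromosome 19, between positions 11249679 and 11604804 of GRCm38. Ms4a1 and Ms4a7 are on the minus strand, Ms4a4c, Ms4a4b, Ms4a6c and Ms4a6b follow each other on the plus strand, and Ms4a6d is on the minus strand. The RefSeq table of promoters (GRCm38.p6) held entries for 5 of the 7. The 250 bases before the start used in that table are shown for the pairs of neighbours Ms4a4b and Ms4a4c, and Ms4a6b and Ms4a6c. These are pairs of related genes whose reads may be shared and whose levels are set side by side below. For Ms4a4c that start lies inside the RefSeq gene, which begins at 11404717. The window of Ms4a6c ends inside its gene, which begins at 11469353. Each window is written 5′ to 3′ on the strand of its gene, and the capitals mark the longest run of bases that both members of the pair share.
Ms4a4b, chr19:11443308-11443557: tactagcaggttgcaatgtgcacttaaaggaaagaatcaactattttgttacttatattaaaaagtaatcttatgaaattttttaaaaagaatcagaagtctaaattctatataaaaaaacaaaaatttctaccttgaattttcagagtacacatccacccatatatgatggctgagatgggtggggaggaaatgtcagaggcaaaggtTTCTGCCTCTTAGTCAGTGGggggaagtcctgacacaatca
Ms4a4c, chr19:11407411-11407660: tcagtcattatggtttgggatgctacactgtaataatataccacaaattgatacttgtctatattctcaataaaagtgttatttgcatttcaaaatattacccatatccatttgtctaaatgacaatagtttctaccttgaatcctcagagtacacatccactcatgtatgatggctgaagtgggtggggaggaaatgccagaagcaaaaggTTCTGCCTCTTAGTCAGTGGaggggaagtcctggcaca
Ms4a6b, chr19:11518309-11518558: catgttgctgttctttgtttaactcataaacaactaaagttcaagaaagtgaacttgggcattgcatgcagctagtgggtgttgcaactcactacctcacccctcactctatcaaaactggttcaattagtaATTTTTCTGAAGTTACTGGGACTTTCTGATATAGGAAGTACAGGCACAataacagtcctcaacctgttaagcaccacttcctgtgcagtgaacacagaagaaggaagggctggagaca
Ms4a6c, chr19:11469118-11469367: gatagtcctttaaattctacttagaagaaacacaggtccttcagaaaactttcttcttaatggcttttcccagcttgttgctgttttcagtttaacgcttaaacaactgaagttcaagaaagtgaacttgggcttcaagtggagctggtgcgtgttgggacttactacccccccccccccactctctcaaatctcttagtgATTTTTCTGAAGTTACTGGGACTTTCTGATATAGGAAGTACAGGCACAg

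Aligned over their full 250 bases, Ms4a4b and Ms4a4c had 185 identical bases, or 74%, and a longest shared run of 20 bases, at positions -41 to -22 from the start in Ms4a4b and -38 to -19 in Ms4a4c. Ms4a6b and Ms4a6c had 149 identical bases, or 59.6%, and a longer shared run of 48 bases. That run lies at -118 to -71 in Ms4a6b and -49 to -2 in Ms4a6c. The other pairs, with both entries of Ms4a7 included, had 50% to 56.4% identical bases and runs of 7 to 9. Of 3 short motifs searched on both strands, GAGGAA (PU.1) occurred in the windows of both Ms4a4b and Ms4a4c, at -64 and -61, and in 23.3% of 32851 promoter windows of the same length. TGTGGT (RUNX) occurred in that of Ms4a4c, on the minus strand at -211, and in 14% of windows, and the ISRE core, TTTC and TTTC with any 2 bases between, occurred in none of the 5 and in 2.98% of windows. The motifs found did not overlap. Related transcripts can also share reads: 11.8% of the 50-base windows in the last 500 bases of the Ms4a4c transcript occur in Ms4a4b, and 10.4% of those of Ms4a6c in Ms4a6b. In the other direction it was 0% for both pairs, and the last 500 bases of the 2 transcripts shared runs of at most 9 bases in each pair. The split of reads within these pairs is therefore uncertain for the shared part.

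The tables held 39064142 UMIs over 26397 barcodes, with 292765 to 4530115 UMIs per library. A total of 24536 cells with at least 200 genes and under 20% mitochondrial UMIs were kept. Some barcodes occurred in more than 1 library of the same day: 279 of 5684 distinct barcodes on day 7, 103 of 8932 on day 14 and 1046 of 7545 on day 21. The healthy lung and healthy spleen libraries of day 21 stood apart, with 76.0% and 94.9% of their barcodes shared and the lowest totals, and only 26 kept cells of that spleen library had a barcode of its own. Calls of the tests between tumour-bearing and healthy mice, tissues and days are given with and without these 2 libraries. In the tumour comparisons, which pair libraries by day, leaving them out also left out the tumour-bearing lung and spleen of day 21. An unnamed cluster led by Gm17511 and Mt2, with 2072 cells of which 97.3% had a shared barcode, lay in the libraries of day 21 apart from 4 cells. It was 16.9% of the cells of the tumour-bearing and 49.1% of those of the healthy lung, 10.4% of those of the tumour-bearing and 51.1% of those of the healthy spleen, and 1.86% of those of the tumour-bearing and 27.0% of those of the healthy scaffold of that day. Cells were clustered without any Ms4a gene, and 28 clusters were named from marker genes where they could be. Of these, 12 clusters with 6618 cells stayed unnamed and are called by their leading genes. Alveolar macrophage-like cells were 8.45% to 16.5% of the cells of healthy lungs and 0% to 1.86% of those of healthy spleens, and no marker list defines a scaffold. Scgb1a1 and Sftpc, which are transcripts of lung epithelium, were among the leading genes of the monocyte-like cluster, which had 1306 cells. With finer clusters (resolution 2) the monocyte-like cluster had 657 cells. A cluster of 749 cells led by Scgb1a1, Sftpc and Cpa3 was then named mast cell and basophil-like. The monocyte-like class used below may therefore be mixed, and its makeup was not tested.

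Each member had its own distribution over the classes. Ms4a1 was concentrated in B cell-like cells, which held 92.9% of its 4672 UMIs. Ms4a4b lay in T cell-like and NK cell-like cells, with 57.0% and 29.7% of its 4785 UMIs. Ms4a7 lay in macrophage-like cells, with 46.0% of its 11907 UMIs, and in the unnamed cluster led by Gpnmb and Mmp12, with 34.2%. The other 4 members were spread over several classes. Ms4a4c had 29.5% of its 2396 UMIs in monocyte-like, 20.9% in B cell-like and 16.9% in conventional dendritic cell-like cells. Ms4a6b had 27.0% of its 7027 UMIs in T cell-like, 18.3% in macrophage-like and 12.0% in monocyte-like cells. Ms4a6c had 24.8% of 9561 UMIs in macrophage-like and 21.8% in monocyte-like cells, and Ms4a6d had 25.4% of 5081 UMIs in macrophage-like cells and 23.9% in the Gpnmb/Mmp12 cluster. A class of many or deep cells takes a large share of any gene, and the Gpnmb/Mmp12 cells were the deepest, with a median of 4627 UMIs per cell, so the levels below are CPM within a class, a gene's UMIs relative to all UMIs of that class in the library.

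**Figure D1:**
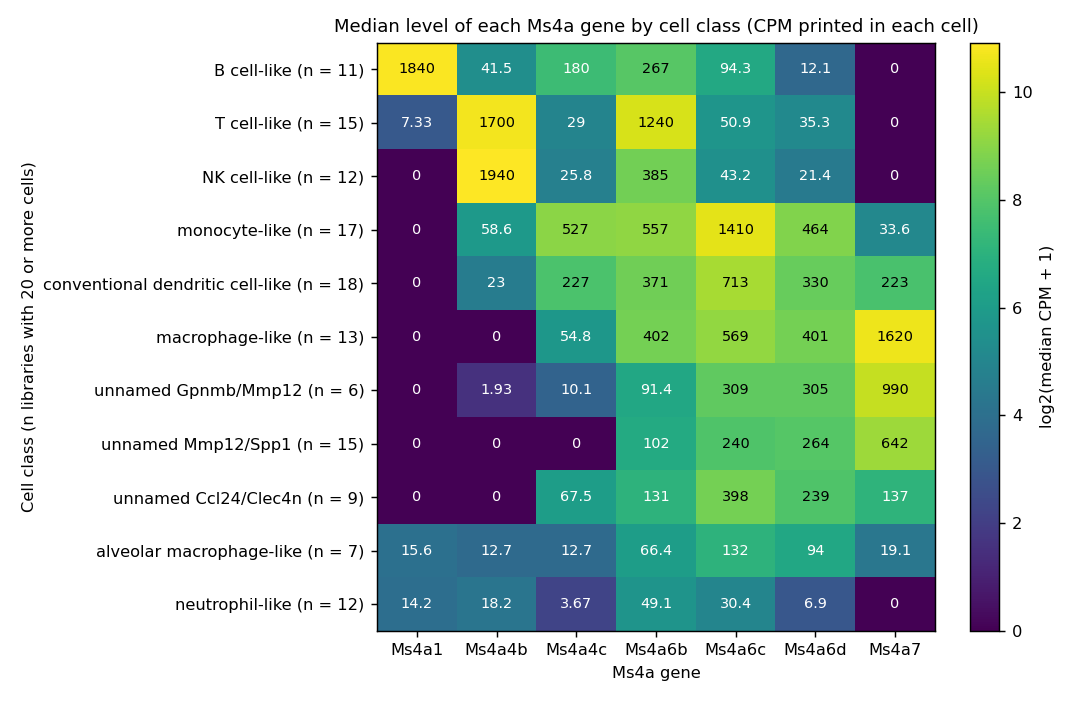
Median CPM of each Ms4a gene (columns) in each cell class (rows), over the libraries with 20 or more cells of the class, on a log2 colour scale; n is the number of libraries. Ms4a1 reaches 1840 in B cell-like cells, Ms4a4b 1940 and 1700 in NK cell-like and T cell-like cells, Ms4a6c 1410 in monocyte-like cells and Ms4a7 1620 in macrophage-like cells.

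For the tests, UMIs were summed over the cells of a class in a library wherever it had 20 or more, which gave 180 sums, and classes were compared within libraries with edgeR's quasi-likelihood test, with Benjamini-Hochberg adjustment over 8439 genes. Across the 5 comparisons, 26 of the 35 tests of a member passed an adjusted p of 0.05, 19 higher and 7 lower.

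In B cell-like sums Ms4a1 lay at 984 CPM at the lowest, 1840 at the median and 2330 at the highest of 11 libraries, and in T cell-like sums at 0, 7.33 and 45.7 CPM over 15 libraries. The ranges did not overlap, and Ms4a1 was higher in B cell-like cells in 11 of the 11 libraries with both, by log2 7.00 ± 0.32 (SE; adjusted p = 1.255e-45, edgeR). In that comparison 18.4% of all genes were called, and 6 of the 7 members: Ms4a1, Ms4a4c and Ms4a6c higher and Ms4a4b, Ms4a6b and Ms4a6d lower in B cell-like cells. A UMI of Ms4a1 was seen in 63.7% of 2691 B cell-like cells, at a median depth of 670 UMIs, and in 1.23% of 6273 neutrophil-like cells, at a median of 992. With each cell thinned to 400 UMIs the shares were 45.4% and 0.57%. In T cell-like cells the share was 1.495%, and 0.294% after thinning. The source of the Ms4a1 UMIs in neutrophil-like and T cell-like cells was not tested.

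Ms4a4c was another member with a B cell level, at a median of 180 CPM in B cell-like sums and 29.0 CPM in T cell-like sums. It was higher in B cell-like cells in 10 of 11 libraries, by log2 2.22 ± 0.27 (adjusted p = 2.296e-12, edgeR). The level in B cell-like cells was below that in monocyte-like cells, which had a median of 527 CPM, in all 11 libraries with both. Ms4a6c differed less, with medians of 94.3 and 50.9 CPM in B cell-like and T cell-like sums and log2 0.79 ± 0.29 (adjusted p = 0.04458, edgeR). That call was lost under 5 alternatives, with adjusted p of 0.0504 to 0.509, the highest without the day-14 libraries.

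T cell-like and NK cell-like cells shared Ms4a4b. Its level had a minimum of 503 CPM, a median of 1700 and a maximum of 2480 in 15 T cell-like sums, and a minimum of 1350, a median of 1940 and a maximum of 3150 in 12 NK cell-like sums, so the ranges overlapped. The fitted difference was log2 -0.71 ± 0.22 (adjusted p = 0.01751, edgeR), but T cell-like sums were the higher in 6 and the lower in 6 of 12 libraries. The adjusted p was 0.309 with classes of 50 or more cells, 0.0773 without shared barcodes, 0.286 without the pairing by library and 0.219 without the day-21 libraries. T cell-like sums of scaffolds were at 902 and 702 CPM on days 7 and 21 in tumour-bearing mice and 1313, 503 and 671 CPM on days 7, 14 and 21 in healthy mice, and those of lung and spleen at 876 to 2480 CPM.

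Ms4a6b separated these lymphocytes more. It had a median of 1240 CPM in T cell-like and 385 CPM in NK cell-like sums, was higher in T cell-like cells in 10 of 12 libraries, and differed by log2 1.42 ± 0.21 (adjusted p = 5.36e-09, edgeR). In B cell-like sums, with a median of 267 CPM, it was lower than in T cell-like sums in 11 of 11 libraries, at log2 -2.07 ± 0.21 (adjusted p = 1.407e-17, edgeR). Between T cell-like and NK cell-like cells 12% of all genes were called, and 4 of the 7 members. The other calls were Ms4a6d, at 35.3 and 21.4 CPM (medians; log2 1.71 ± 0.47), and Ms4a7, which had 1 UMI over 15 T cell-like sums and 15 UMIs over 12 NK cell-like sums, all from healthy scaffolds. Without shared barcodes the difference of Ms4a7 had the opposite sign, at log2 2.24 ± 2.00 (adjusted p = 0.571, edgeR).

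**Figure D2:**
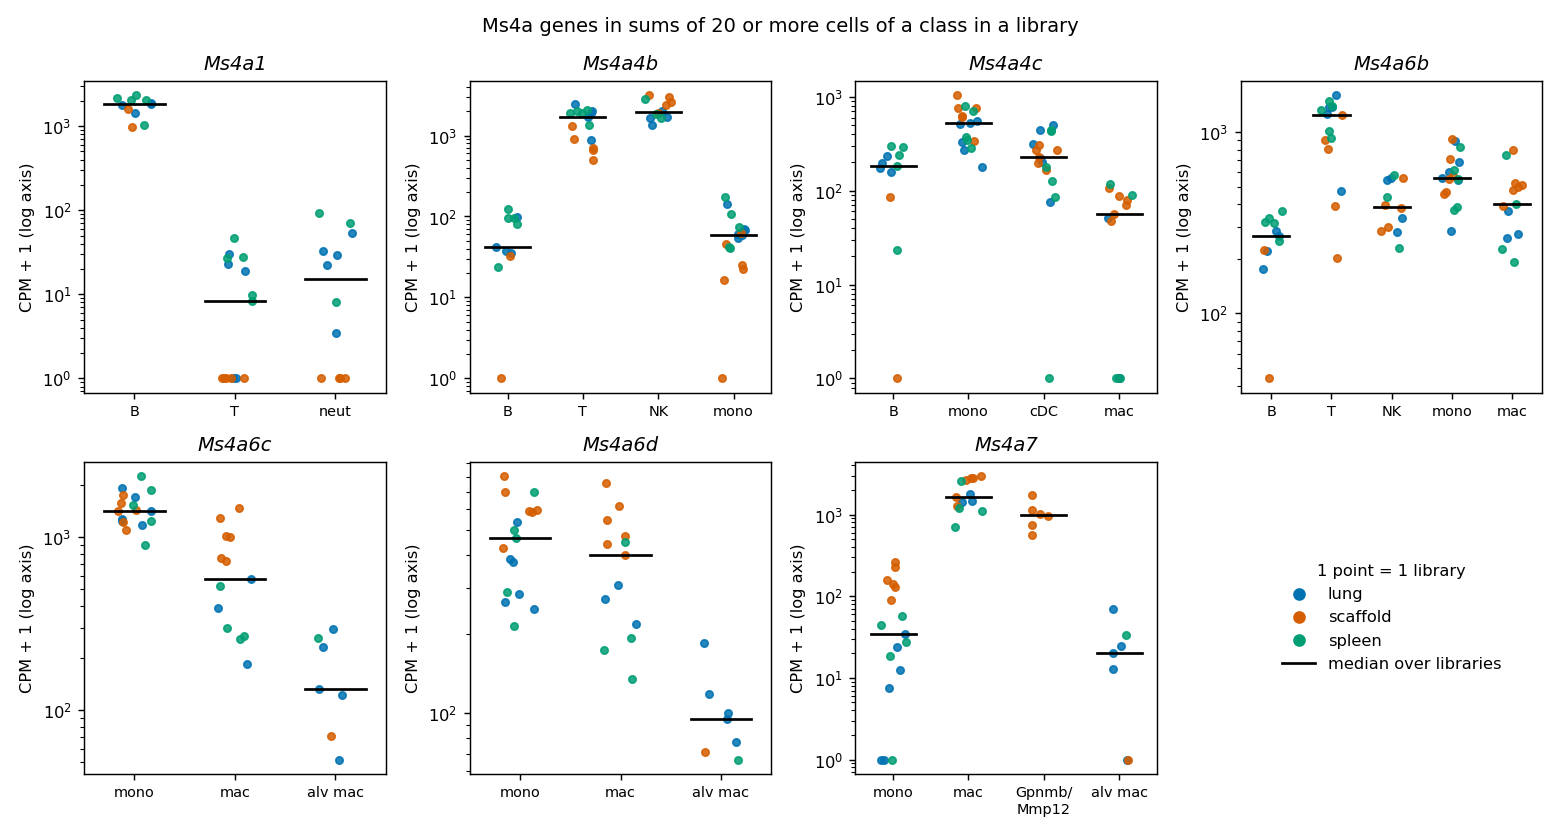
CPM + 1 on a log axis of each Ms4a gene in sums of 20 or more cells of a class, 1 point per library, coloured by tissue, with a bar at the median (neut, neutrophil-like; mono, monocyte-like; cDC, conventional dendritic cell-like; mac, macrophage-like; alv mac, alveolar macrophage-like). In their panels, Ms4a1 in B cell-like sums and Ms4a7 in macrophage-like sums lie apart from T cell-like and neutrophil-like sums, and from monocyte-like and alveolar macrophage-like sums, while Ms4a6b overlaps between lymphoid and myeloid classes.

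Ms4a7 and Ms4a4c differed in opposite directions between monocyte-like and macrophage-like cells. Ms4a7 had 0 CPM at the lowest, 33.6 at the median and 264 at the highest of 17 monocyte-like sums, and 703, 1620 and 2930 CPM in 13 macrophage-like sums. The ranges did not overlap, and it was lower in monocyte-like cells in 12 of 12 libraries, at log2 -4.44 ± 0.27 (adjusted p = 4.544e-35, edgeR). Ms4a4c went the other way, with medians of 527 and 54.8 CPM in monocyte-like and macrophage-like sums, higher in monocyte-like cells in 12 of 12 libraries and by log2 2.99 ± 0.25 (adjusted p = 2.624e-22, edgeR). Of all genes 20.8%, and 4 of the 7 members were called in that comparison. Ms4a6c was higher in monocyte-like cells in 12 of 12 libraries, at medians of 1410 and 569 CPM and log2 1.04 ± 0.20 (adjusted p = 8.791e-06, edgeR). Without shared barcodes its difference was log2 0.33 ± 0.22 (adjusted p = 0.345). Ms4a6b and Ms4a6d were not called, at log2 0.19 ± 0.20 and 0.30 ± 0.23 (adjusted p = 0.557 and 0.390, edgeR). The last call was Ms4a4b, at medians of 58.6 and 0 CPM, with 0 to 172 CPM in monocyte-like sums.

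The level of Ms4a7 in monocyte-like sums differed by tissue. In scaffolds it was 159, 130 and 87.7 CPM on days 7, 14 and 21 in tumour-bearing mice and 226, 139 and 264 CPM in healthy mice. In the 11 sums of lung and spleen it was 0 to 57.0 CPM, so the tissues did not overlap. Scaffold libraries also held the most Ms4a7 in whole-library sums, and an NK cell-like sum of a healthy scaffold reached 210 CPM. The part of RNA free in the droplets was not tested. Scaffold and the other tissues overlapped for each of the other 6 members in these sums. The share of all genes that lay apart between tissues in this way was not counted.

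The macrophage classes were far apart in this family. Alveolar macrophage-like cells had Ms4a7 at a median of 19.1 CPM over 7 libraries, against which macrophage-like cells were higher in 4 of 4 libraries, by log2 5.13 ± 0.51 (adjusted p = 3.763e-17, edgeR). Ms4a6b, at 402 and 66.4 CPM in macrophage-like and alveolar macrophage-like sums, was higher by log2 2.63 ± 0.34, Ms4a6c, at 569 and 132 CPM, by log2 2.14 ± 0.33, and Ms4a6d, at 401 and 94.0 CPM, by log2 1.59 ± 0.37 (adjusted p = 6.884e-11, 2.797e-08 and 0.0005807, edgeR). In the 4 libraries with both classes, Ms4a6b was higher in macrophage-like cells in 3 and lower in 1. Ms4a6c and Ms4a6d were higher in 4 of 4. The medians are over 13 macrophage-like and 7 alveolar macrophage-like sums, which have those 4 libraries in common. With Ms4a4c, 5 of 7 members were called, where 14% of all genes were. Ms4a4c, at log2 1.94 ± 0.52, was higher in macrophage-like cells in 1 and lower in 2 of the 4 libraries with both, and was no longer called without shared barcodes (adjusted p = 0.0883) and without the day-7 libraries (0.262). The Gpnmb/Mmp12 cluster, found with 20 or more cells in the 6 scaffold libraries only, had lower levels of Ms4a4c, Ms4a6b, Ms4a6c, Ms4a6d and Ms4a7 than macrophage-like cells in 6 of 6 libraries each, a comparison that was not tested. Its Ms4a7 was 1027, 954 and 557 CPM on days 7, 14 and 21 in tumour-bearing mice and 1738, 1119 and 742 CPM in healthy mice.

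Neutrophil-like cells, the most numerous class with 6273 cells, had low values for every member, at medians of 0 to 49.1 CPM. The unnamed cluster led by Irg1 and Niacr1, of 479 cells, was as low, at medians of 0 to 66.8 CPM over 5 libraries, with the highest for Ms4a7. Between monocyte-like and neutrophil-like cells all 7 members were called, where 51.6% of all genes were. Ms4a6d was higher in monocyte-like cells by log2 5.15 ± 0.32, Ms4a4c by 5.28 ± 0.28, Ms4a6c by 5.05 ± 0.25 and Ms4a6b by 3.61 ± 0.24, each in 12 of 12 libraries. Ms4a7, by log2 2.99 ± 0.45, and Ms4a4b, by 1.09 ± 0.39, were higher in monocyte-like cells in 11 of 12 libraries. Ms4a1 was called the other way, at log2 -1.75 ± 0.52 (adjusted p = 0.002592, edgeR), lower in monocyte-like cells in 6 and higher in 2 of 12 libraries, at a median of 14.2 CPM in neutrophil-like sums. Conventional dendritic cell-like cells, which were not in a test, had medians of 227 CPM for Ms4a4c, 371 for Ms4a6b, 713 for Ms4a6c, 330 for Ms4a6d and 223 for Ms4a7. In a small cluster of 54 cells led by the interferon-induced genes Rsad2 and Ifit2, 57.4% of cells had a UMI of Ms4a4c, against 28.4% of monocyte-like cells, at median depths of 1424 and 701 UMIs, and 28% and 15.5% after thinning to 400 UMIs. After thinning Ms4a6b was seen in 32% and 19.8%, Ms4a6d in 30% and 14.1% and Ms4a7 in 20% and 1.93% of Rsad2/Ifit2 and monocyte-like cells, and Ms4a6c in 28% and 39.2%. In macrophage-like cells Ms4a7 was seen in 42.1%, Ms4a4c in 2.05%, Ms4a6b in 13.9%, Ms4a6c in 22.75% and Ms4a6d in 14.3%. The cluster was on average 0.789% of the cells of healthy and 0.381% of those of tumour-bearing scaffolds, and 0.139% of those of healthy lungs. The shares of the Rsad2/Ifit2 cluster rest on 50 cells with 400 or more UMIs, and none of these shares was tested.

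Over the 180 class and library sums, which share libraries and class composition, the genes most alike to each member in log2 CPM were found among 5702 candidates. Ms4a1 was most like Iglc2 (Pearson r = 0.905), Cd79a (0.898) and Cd79b (0.88), an immunoglobulin light chain constant gene and the signalling chains of the B cell receptor. Ms4a4b was most like Trbc1 (0.905) and Lck (0.903), a T cell receptor constant gene and a T cell kinase. Ms4a7 was most like C3ar1 (0.906), the receptor for complement C3a, Pf4 (0.857) and C1qc (0.852). Ms4a6c and Ms4a6d were most like Rassf4 (0.789) and Msr1 (0.803), of which Msr1 is a macrophage scavenger receptor. For Ms4a4c and Ms4a6b the values were lower, at 0.697 for Pyhin1 and 0.763 for Mndal, both members of the interferon-inducible Ifi200 family. Between members r ran from -0.434 (Ms4a4b and Ms4a7) to 0.83 (Ms4a6c and Ms4a6d).

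In whole libraries, where the UMIs of all kept cells were summed, healthy tissues differed most in Ms4a1 and Ms4a7. In such sums fewer cells of a type and less RNA per cell cannot be told apart. Ms4a7 was at 861, 775 and 412 CPM on days 7, 14 and 21 in healthy scaffolds, at 57.0, 16.6 and 141 CPM in healthy lungs and at 60.4, 15.5 and 158 CPM in healthy spleens. All 3 scaffold libraries lay above all libraries of the other tissues. The difference was log2 3.60 ± 0.74 from lung and 3.53 ± 0.75 from spleen (adjusted p = 0.01421 and 0.007075, edgeR over 11158 genes). Ms4a1 was at 11.1, 8.08 and 1.55 CPM in healthy scaffolds, at 309, 266 and 34.4 CPM in lungs and at 717, 926 and 41.3 CPM in spleens. It was lower in scaffolds by log2 -4.87 ± 0.57 from lung and -6.10 ± 0.59 from spleen (adjusted p = 0.0007547 and 0.0001222). From spleen, Ms4a6c and Ms4a6d were also higher in scaffolds, by log2 1.62 ± 0.40 and 2.14 ± 0.47 (adjusted p = 0.01454 and 0.008833). In all, 2 of 7 members were called between scaffold and lung, where 5.95% of all genes were, and 4 of 7 between scaffold and spleen, where 15.6% were. DESeq2 called 4 of 7 in each, with Ms4a6c and Ms4a6d higher in scaffold than in lung (log2 1.17 ± 0.39 and 1.498 ± 0.46, adjusted p = 0.0398 and 0.0209). The shares of all genes above are those of edgeR, and the share that DESeq2 called was not counted. Between healthy lung and spleen no member was called by edgeR or DESeq2, and 1 was under an unadjusted p of 0.05. There edgeR called 0.699% of genes, and 1144 of 11158 were under that unadjusted p.

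The shares of cells also differed between healthy tissues. Macrophage-like cells made up 12.0% to 23.8% of the cells of healthy scaffolds, 1.26% to 4.57% of those of healthy lungs and 0.511% to 6.07% of those of healthy spleens. In the same order, Gpnmb/Mmp12 cells made up 7.32% to 11.3%, 0.0898% to 1.55% and 0% to 1.57%. Mmp12/Spp1 cells, with a median Ms4a7 of 642 CPM, made up 5.38% to 17.7%, 1.62% to 8.75% and 1.70% to 14.9%, which overlapped. B cell-like cells made up 0.323% to 2.49%, 1.85% to 25.2% and 1.76% to 59.4%. The part of these shares in the differences between tissues was not tested. Without the 2 healthy libraries of day 21 that stood apart, all 6 calls remained. Without the libraries of day 7, and likewise without those of day 14, the 2 calls of Ms4a1 remained and the other 4 did not. Without the pairing by day Ms4a1 and Ms4a7 lost their calls between scaffold and lung (adjusted p = 0.113 and 0.0556).

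The comparison of tumour-bearing with healthy mice asked how the family changed with the tumour in each tissue. Ms4a1 was the one member called, and in lung alone. In lung it was at 140, 118 and 3.92 CPM on days 7, 14 and 21 in tumour-bearing mice, against 309, 266 and 34.4 CPM in healthy mice. It was lower on each of the 3 days, although the ranges over days overlapped, by log2 -1.62 ± 0.47 (adjusted p = 0.04596, edgeR), where 9.07% of all genes were called and the median of all genes was log2 -0.22. The call was close to the threshold: the adjusted p was 0.256 without the healthy libraries of day 21, 0.243 without all of day 21, 0.341 when a cell needed 400 genes and 0.584 without the pairing by day. Without the libraries of day 7 and of day 14 it was 0.054 and 0.133. Of the other members in lung, Ms4a7 was at 16.0, 18.6 and 35.8 CPM in tumour-bearing and 57.0, 16.6 and 141 CPM in healthy mice, at log2 -1.32 ± 0.51 (adjusted p = 0.109). Without the healthy libraries of day 21 its difference was log2 -0.85 ± 0.48 (adjusted p = 0.422).

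**Figure D3:**
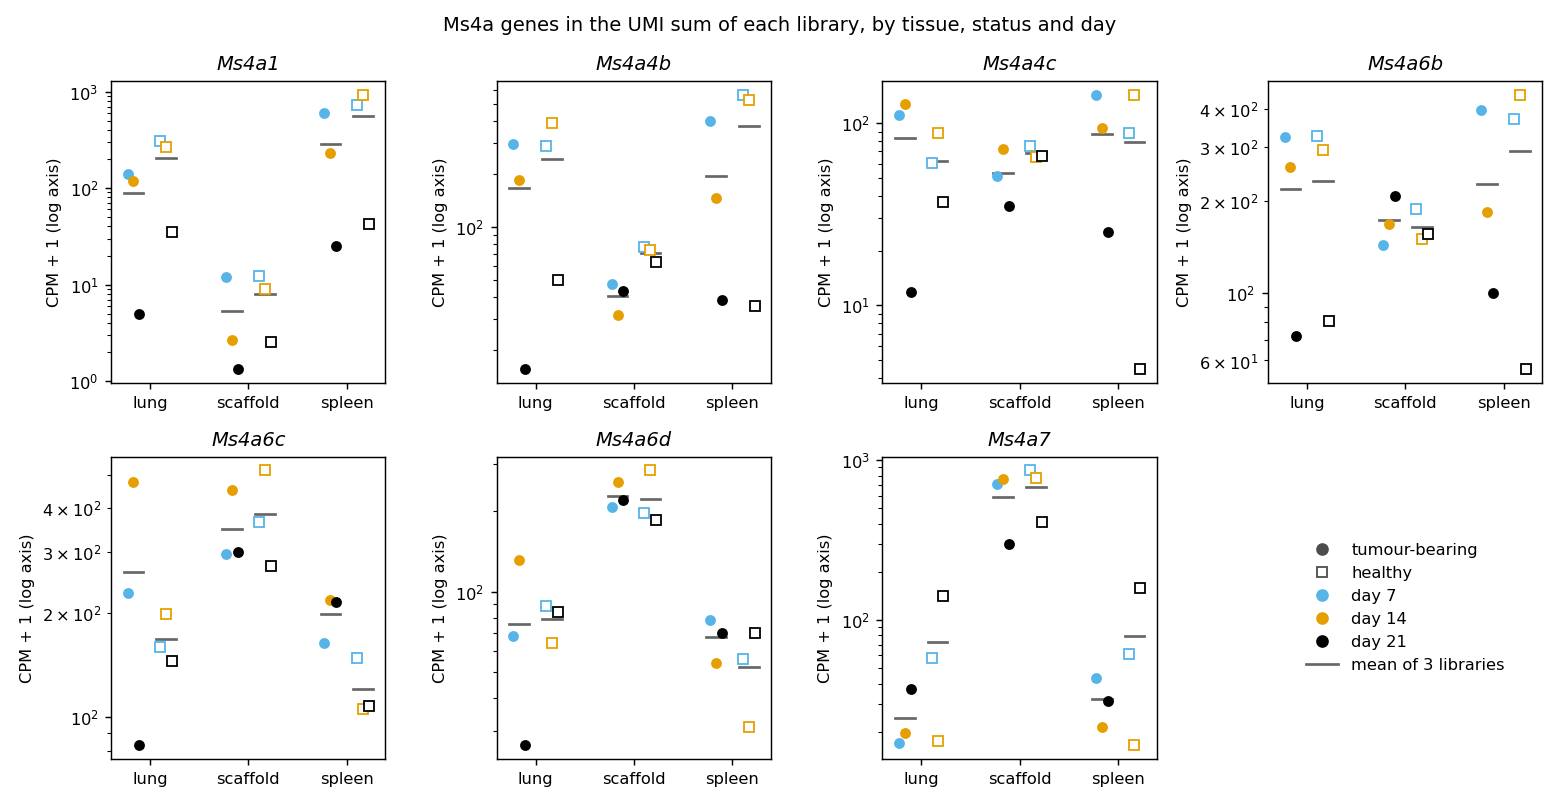
CPM + 1 on a log axis of each Ms4a gene in the sum of each library, by tissue; filled circles are tumour-bearing and open squares healthy libraries, colours give the day and bars the mean of 3 libraries. Ms4a7 in scaffolds lies at 297 to 861 CPM, above every lung and spleen library, and the lung and spleen libraries of day 21 are the lowest of their group for Ms4a1.

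In spleen Ms4a1 was at 605, 232 and 24.2 CPM on days 7, 14 and 21 in tumour-bearing mice and 717, 926 and 41.3 CPM in healthy mice. It was lower on each day, at log2 -1.03 ± 0.47, without passing the test (adjusted p = 0.264, edgeR). Ms4a6c was at 163, 217 and 214 CPM in tumour-bearing and 147, 104 and 107 CPM in healthy spleens. These groups did not overlap, and the difference was log2 0.73 ± 0.37 (adjusted p = 0.324, edgeR). How many of all genes lay apart in this way was not counted, here or for Ms4a4b in scaffolds below. No member was called in spleen by edgeR or DESeq2, with 1 and 2 under an unadjusted p of 0.05. Of all 11158 genes, edgeR called 3.31%, and 2006 were under that unadjusted p. In scaffolds no member was called by either tool, and 0 by edgeR and 1 by DESeq2 were under an unadjusted p of 0.05. There edgeR called 0.161% of genes, and 410 of 11158 were under that unadjusted p. Ms4a4b was at 46.6, 30.5 and 42.0 CPM in scaffolds of tumour-bearing mice and 75.6, 73.2 and 62.1 CPM in those of healthy mice, without overlap, at log2 -0.83 ± 0.39 (adjusted p = 1). Ms4a7 was at 708, 759 and 297 CPM in scaffolds of tumour-bearing mice and 861, 775 and 412 CPM in those of healthy mice, at log2 -0.26 ± 0.44 (adjusted p = 1).

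**Figure D4:**
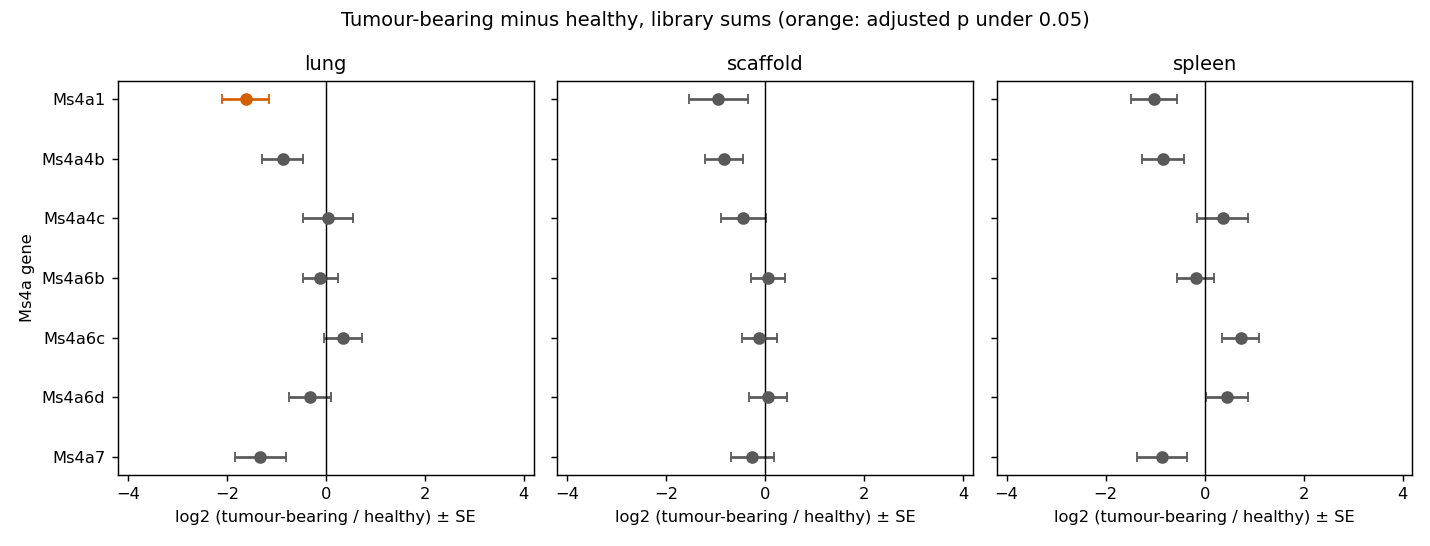
Log2 difference of tumour-bearing minus healthy libraries, with its standard error, for each Ms4a gene (rows) in lung, scaffold and spleen (panels); orange marks an adjusted p under 0.05. The difference of Ms4a1 in lung, -1.62, is the one called, and those of Ms4a1, Ms4a4b and Ms4a7 are below 0 in all 3 tissues.

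The difference between the tissues was tested itself, as the tumour effect in 1 tissue minus that in another. No member was called by edgeR in the 3 such comparisons of 7 members, and 0 were under an unadjusted p of 0.05. For lung minus scaffold, lung minus spleen and scaffold minus spleen, 0%, 0.0179% and 0% of genes were called. In the same order 1062, 1117 and 846 of 11158 genes were under that unadjusted p. The largest member differences were log2 -1.06 ± 0.67 for Ms4a7 in lung minus scaffold and -0.85 ± 0.51 for Ms4a6c in scaffold minus spleen.

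Marker genes of cell types were counted in the same comparisons of whole libraries. In lung, 3 of 14 B cell markers were lower and none higher in tumour-bearing mice, with a median of log2 -1.10, where 2.91% of all genes were called lower and 6.16% higher. Of the macrophage markers 4 of 15 were lower, with a median of log2 -1.31, and of the alveolar macrophage markers 8 of 12, with a median of -1.64, and none of either list was higher. Of the neutrophil markers 15 of 17 were higher, with a median of 4.195. Without the healthy libraries of day 21 the counts in lung were 0 of 14 B cell, 0 of 15 macrophage and 1 of 12 alveolar macrophage markers lower and 11 of 17 neutrophil markers higher, with medians of log2 -0.94, -1.08, -1.44 and 3.54. Without shared barcodes they were 7, 2, 6 and 17. Neutrophil-like cells were 39.4% to 63.8% of tumour-bearing and 0.68% to 7.44% of healthy lung cells, and B cell-like cells 0.384% to 12.0% of tumour-bearing and 1.85% to 25.2% of healthy lung cells. The part of the cell makeup in the differences of Ms4a1 and Ms4a7 was not tested in whole libraries. In spleen 14 of 17 neutrophil markers were higher, and none of 14 B cell markers passed the test, with a median of log2 -0.90. B cell-like cells were 4.74% to 38.3% of tumour-bearing and 1.76% to 59.4% of healthy spleen cells.

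Within cell classes the tumour effect was tested where at least 2 days had 20 or more cells of the class in both statuses. This gave 85 tests of a member over 10 classes, in 19 combinations of class and tissue. None was called by edgeR, where 0% to 0.694% of genes were called, and 7 were under an unadjusted p of 0.05. These included 1 of 5 members in T cell-like cells of lung (125 of 3512 genes) and 1 of 6 in monocyte-like cells of scaffold (171 of 2307). In conventional dendritic cell-like cells of lung, scaffold and spleen they were 1, 1 and 2 of 5 (115, 61 and 146 of 2016). In Gpnmb/Mmp12 cells of scaffold it was 1 of 4 (157 of 6975). Whether the members exceeded all genes was not tested. Over the fits with members, edgeR called 0.0716% and 0.119% of genes in B cell-like cells of lung and spleen, 0.256%, 0.114% and 0.37% in T cell-like cells of lung, scaffold and spleen, and 0% and 0.288% in NK cell-like cells of lung and scaffold. In monocyte-like cells of lung, scaffold and spleen it called 0.694%, 0.26% and 0.0867%, and in conventional dendritic cell-like cells of the same tissues 0.0992%, 0.198% and 0.0496%. It called 0.208% in macrophage-like, 0.121% in Ccl24/Clec4n, 0.0287% in Gpnmb/Mmp12 and 0.174% in Mmp12/Spp1 cells of scaffolds, 0% in Mmp12/Spp1 cells of spleen and 0.224% in alveolar macrophage-like cells of lung. Ms4a1 in B cell-like cells of lung was at 1440 and 1794 CPM on days 7 and 14 in tumour-bearing mice and 1837 and 1891 CPM in healthy mice, at log2 -0.11 ± 0.21 (adjusted p = 0.977). In B cell-like cells of spleen it was at 2063 and 2332 CPM in tumour-bearing and 2054 and 2148 CPM in healthy mice, at log2 0.05 ± 0.20 (adjusted p = 0.996). In neither tissue was the difference larger than its error, in a fit with 2 days a tissue and 2 residual degrees of freedom. On day 21 the healthy lung and spleen and the tumour-bearing lung had fewer than 20 B cell-like cells, so the day with the lowest Ms4a1 was not in these tests.

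Ms4a7 in macrophage-like cells of scaffolds was at 2620, 2807 and 1283 CPM on days 7, 14 and 21 in tumour-bearing mice and 2930, 2820 and 1625 CPM in healthy mice, at log2 -0.17 ± 0.23 (adjusted p = 1, edgeR). It was lower in tumour-bearing mice on each day in these cells and in the Gpnmb/Mmp12 cluster, where the difference was log2 -0.48 ± 0.21 (adjusted p = 0.9995). Ms4a4c in monocyte-like cells of scaffolds was at 610, 628 and 335 CPM in tumour-bearing and 1038, 766 and 760 CPM in healthy mice. The groups did not overlap, and the difference was log2 -0.76 ± 0.34 (adjusted p = 0.596, edgeR). How many of all genes lay apart in this way was not counted. Ms4a6d in conventional dendritic cell-like cells of spleen had 22, 40 and 6 UMIs in 44, 105 and 44 cells of tumour-bearing mice, against 0, 0 and 2 UMIs in 27, 29 and 21 cells of healthy mice. Its adjusted p was 0.143, the lowest of the 85, and it was 0.0161 without the healthy lung and spleen libraries of day 21, 0.00991 without all of day 21 and 0.0346 with finer clusters.

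In spleen the fitted slopes over days of Ms4a1, Ms4a4b and Ms4a6b were below 0 and called. Per week, over both statuses, Ms4a1 changed by log2 -2.14 ± 0.59, Ms4a4b by -1.74 ± 0.43 and Ms4a6b by -1.09 ± 0.29 (adjusted p = 0.03534, 0.02546 and 0.03243, edgeR), where 10.3% of all genes were called. Ms4a4b was at 402, 145 and 37.6 CPM on days 7, 14 and 21 in tumour-bearing spleens and 565, 530 and 34.4 CPM in healthy spleens, so that the low value of healthy mice was that of day 21. Ms4a6b was at 396, 182 and 99.0 CPM in tumour-bearing and 368, 443 and 55.1 CPM in healthy spleens. Ms4a1 was at 717, 926 and 41.3 CPM in healthy spleens. Both were thus higher on day 14 than on day 7 in healthy spleens, and low on day 21 only. The shares of lymphocytes were lower on day 21 too: B cell-like cells were 38.3%, 19.4% and 4.74% of the cells of tumour-bearing spleens and 36.4%, 59.4% and 1.76% of those of healthy spleens on days 7, 14 and 21. T cell-like cells were 19.1%, 10.2% and 4.05% in tumour-bearing and 23.1%, 22.8% and 0.783% in healthy spleens, and the Gm17511/Mt2 cluster was absent from the kept cells of spleen on days 7 and 14. Their part in the slopes was not tested. Of these 3 calls, 0 were left without shared barcodes, 0 without the healthy libraries of day 21 and 0 without all of day 21, with adjusted p of 0.0992, 0.0684 and 0.127, 0.192, 0.148 and 0.161, and 0.664, 0.464 and 0.647 for Ms4a1, Ms4a4b and Ms4a6b. Without the libraries of day 7, Ms4a6b had an adjusted p of 0.0762. In lung and scaffold no member was called by edgeR, with 3 and 1 members under an unadjusted p of 0.05. Of all 11158 genes, 2.74% and 0.439% were called, and 2366 and 768 were under that unadjusted p. The slopes of Ms4a6c, Ms4a6d and Ms4a7 in spleen were -0.02 ± 0.29, 0.02 ± 0.27 and 0.24 ± 0.38.

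Of the 14 other names of the family and its relatives that were looked for, 8 were found in the tables. Ms4a3 lay in neutrophil progenitor-like cells, with a median of 1130 CPM over 7 libraries. In whole spleen libraries it was at 21.1, 393 and 826 CPM on days 7, 14 and 21 in tumour-bearing mice and 2.75, 44.9 and 41.3 CPM in healthy mice. It was higher by log2 3.55 ± 0.43 (adjusted p = 0.001793, edgeR), and neutrophil progenitor-like cells were 1.11% to 13.4% of tumour-bearing and 0.207% to 7.24% of healthy spleen cells. Tmem176a and Tmem176b were at medians of 218 and 382 CPM in conventional dendritic cell-like sums, and Tmem176a was higher in tumour-bearing spleens, by log2 1.80 ± 0.45 (adjusted p = 0.04694). Without the healthy libraries of day 21 the differences of Ms4a3 and Tmem176a in spleen were log2 3.19 ± 0.45 and 2.20 ± 0.49 (adjusted p = 0.005896 and 0.04106), and without all of day 21 that of Tmem176a had an adjusted p of 0.0502. Ms4a8a had 269 UMIs in kept cells, and Ms4a2, Ms4a4d, Ms4a10 and Ms4a15 had 37 or fewer each.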

How the data were processed

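The deposited tables hold whole-number UMI counts per gene and cell, 1 table per library, not normalized; the submitters' processing notes name Seurat 2.0 and mm10, without their roles. No aligner is given in the sources used here. The members and gene lists were chosen with earlier results of these data known. Cells with at least 200 genes and under 20% mitochondrial counts were kept. Doublets were not removed. Barcodes shared by libraries of a day were kept and left out in an alternative. Cells were clustered with scanpy 1.11.5 and leidenalg 0.10.2 (2000 variable genes, 30 components, 15 neighbours, resolution 1) without 13 Ms4a genes, and named from 203 marker genes found in the tables. Thinning drew 400 UMIs per cell, so shallower cells were left out.

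Counts were summed per library, or per class and library with at least 20 cells, and tested with edgeR 4.0.16 (quasi-likelihood, TMM, filterByExpr, Benjamini-Hochberg adjustment over all genes tested, threshold 0.05), two-sided, with day or library as a block; DESeq2 1.42.0 was an alternative. Tumour effects were fitted over all 18 libraries. Same-day libraries of tumour-bearing and healthy mice deviated together, with correlations of 0.185 to 0.625 over the 3 tissues and the days, so day pairs them. The highest in each tissue was that of day 21, at 0.54 in lung, 0.469 in scaffold and 0.625 in spleen. That was also the day with the most shared barcodes, whose part in these correlations was not tested. The scripts were tested on simulated data. Named were the 7 members in each comparison, the relatives with their counts, and for each member the genes most alike to it. Intervals of shares would cover counting error only, and depths are given with the results.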

Additional observations from a re-analysis of the deposited data

Results flagged for a closer look

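Ms4a3, a relative of the 7 genes and a marker of granulocyte and monocyte progenitors, differed in its tumour effect between lung and spleen. The test of the difference itself gave log2 -5.04 ± 0.68 for the effect in lung minus that in spleen (adjusted p = 0.02167, edgeR, 3 libraries a group). In lung Ms4a3 was at 0, 1.96 and 22.0 CPM on days 7, 14 and 21 in tumour-bearing mice and 4.60, 3.16 and 54.2 CPM in healthy mice, lower in tumour-bearing mice on 3 of 3 days. These lung values rest on 0, 2 and 73 UMIs in tumour-bearing and 5, 4 and 30 UMIs in healthy mice, so those of days 7 and 14 lie near the floor. In spleen it was at 21.1, 393 and 826 CPM in tumour-bearing mice and 2.75, 44.9 and 41.3 CPM in healthy mice, higher on 3 of 3 days. The healthy lung and spleen libraries of day 21, of which 76.0% and 94.9% of barcodes were shared with other libraries, are among these. Without them the difference was log2 -5.13 ± 1.02 and was no longer called (adjusted p = 0.666, edgeR), and without all of day 21 it was -5.09 ± 1.08 (adjusted p = 0.788). Without shared barcodes Ms4a3 did not pass the filter on low counts.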

How the results depend on the processing

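Of the calls between cell classes, 21 to 26 of 35 remained under each alternative run, against 26 as reported. One called value turned round: Ms4a7 in T cell-like minus NK cell-like cells, at log2 2.24 without shared barcodes. The call of Ms4a1 in lung made the count of members 1, and it was 0 without the replicate block, with cells of 400 or more genes, with no mitochondrial filter, without the healthy lung and spleen libraries of day 21, and 0 to 0 over the fits that left out a day. Between healthy tissues the 6 calls became 2 to 11 when a day was left out, 4 without the replicate block, 8 with DESeq2, 9 with no filter on low counts and 8 without the healthy libraries of day 21. The shares of all genes called under these alternatives are not given. For change with day the 3 calls became 5 with library totals alone, 0 without shared barcodes, 0 without the healthy libraries of day 21 and 0 to 8 when a day was left out. Within classes the 0 calls became 1 at the finer clustering, 1 without the healthy libraries of day 21 and 0 to 1 when a day was left out. The call within a class was Ms4a6d in conventional dendritic cell-like cells of spleen. In whole libraries no member was called for the tumour effect in scaffold or in spleen, or between tissue effects, under any alternative run. Of the values of single genes, 1262 kept direction and side of the threshold, 132 changed sign without being called in either fit, 27 were now past the threshold, 49 no longer were, and 1 called value changed sign. Setting the block aside changed no other count of calls by over 1.5 times. The cause of these changes was not tested. The alternative without the healthy libraries of day 21, and every alternative for the relatives and the marker counts, was chosen after seeing the data. With 3 libraries a group and 1 per day, status and tissue, the whole-library fit of tumour effects had 6 residual degrees of freedom. Within classes the fit had 1 in alveolar macrophage-like cells and 2 in B cell-like, NK cell-like, macrophage-like, Ccl24/Clec4n and Gpnmb/Mmp12 cells. It had 3 in T cell-like, 4 in Mmp12/Spp1, 5 in monocyte-like and 6 in conventional dendritic cell-like cells.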
